A study of Rattus norvegicus with 10 samples.

Results

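Matrix metalloproteinases (MMPs) were examined in mammary glands of E2-treated rats through 10 genes: Mmp2, Mmp3, Mmp7, Mmp9, Mmp11 and Mmp12, whose products are secreted, and Mmp14, Mmp15, Mmp23 and Mmp24, whose products are made bound to the membrane. A probe set was assigned to a gene when its annotation held that symbol alone, which gave 17 probe sets for the 10 genes, of 31042 probe sets and 14217 genes on the array. Every probe set of these genes was kept, whatever its level. The genes themselves were chosen with earlier results of these data known, so the counts below describe a chosen list. A further 7 measured MMPs were not among the members and are given at the end of the Results. The 10 enzymes differ in where they act, and the comparison of secreted with membrane-bound members was made for that reason.

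The samples were whole mammary glands of female inbred rats, with 1 Affymetrix Rat Genome array per rat: 5 ACI rats of the ACI/SegHsd substrain and 5 Brown Norway (BN) rats. Every rat carried 17β-estradiol (E2) for 12 weeks. The labels give age in different ways: 21 weeks for ACI rats, with no age at the start, and 9 weeks at the start of treatment for BN rats. The study's methods state that implants were placed in rats 9 weeks old, without a difference between strains. ACI females develop mammary cancer under continuous E2 and BN females resist it, so the comparison asks which genes differ between a susceptible and a resistant gland under the same hormone. No array of an untreated rat was analysed here, so a difference that existed before E2 and a response to E2 cannot be told apart. In both strains the animal identifiers of rats 1 to 3 begin with S and those of rats 4 and 5 with H, which the labels do not explain. In RNA from a whole gland, fewer cells of a type and less RNA per cell cannot be told apart either.

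MMPs are zinc-dependent endopeptidases that cut the proteins of the extracellular matrix. They are made as inactive precursors whose pro-peptide must be removed, and they are held in check by the tissue inhibitors of metalloproteinases (TIMPs). In the mammary gland they are known for their part in ductal branching, in the remodelling of stroma and in the breakdown of alveoli after lactation, and some are made mainly by epithelium, others by fibroblasts, macrophages or neutrophils.

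Array values are log2 expression after GCRMA, a method that subtracts an estimate of nonspecific binding, so genes with no signal collapse to a floor (2.23 was the lowest value, held by 30.6% to 33.3% of probe sets on each array). A probe set was called near background in a strain when all 5 of its rats were below 4. Differences are given as ACI minus BN, with a 95% confidence interval, and a call means an adjusted p below 0.05 from limma, adjusted over all 31042 probe sets. Levels of different probe sets were not compared, since each has its own affinity. The 10 arrays had medians of 3.35 to 3.53, and pairs of arrays correlated at 0.981 to 0.995 when both were ACI, at 0.957 to 0.992 when both were BN and at 0.935 to 0.960 otherwise. The luminal keratin Krt8 was 11.60 ± 0.435 in ACI and 11.38 ± 0.530 in BN (SD, n = 5 each), and the adipocyte gene Fabp4 was 13.62 ± 0.682 and 14.30 ± 0.240, so both strains held epithelium and fat.

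The genes Mmp7, Mmp12 and Mmp3 lie in a single cluster on chromosome 8 but differ in strain difference, and Mmp3 was near background in every rat. Mmp11, on chromosome 20, is the other secreted member that differed between strains and has a listed promoter. For these reasons the sequences just upstream of these 4 secreted members are shown. Each is the 150 bases before the annotated start, on the plus strand, from RefSeq on the GRCr8 assembly: Mmp7 at chr8:13132893-13133042, Mmp12 at chr8:12866502-12866651, Mmp3 at chr8:12925131-12925280 and Mmp11 at chr20:12730134-12730283. Capitals mark TGANTCA, the letters bound by AP-1 (Fos and Jun dimers), the TATA box TATAAA and, in Mmp7, TCAAAG, the reverse complement of the TCF/LEF core CTTTGA.
Mmp7: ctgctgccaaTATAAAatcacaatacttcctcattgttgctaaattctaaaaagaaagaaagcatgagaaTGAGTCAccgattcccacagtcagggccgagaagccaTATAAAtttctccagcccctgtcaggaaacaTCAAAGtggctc
Mmp12: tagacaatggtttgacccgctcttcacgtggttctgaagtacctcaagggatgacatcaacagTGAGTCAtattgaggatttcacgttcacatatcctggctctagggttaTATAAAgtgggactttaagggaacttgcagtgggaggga
Mmp3: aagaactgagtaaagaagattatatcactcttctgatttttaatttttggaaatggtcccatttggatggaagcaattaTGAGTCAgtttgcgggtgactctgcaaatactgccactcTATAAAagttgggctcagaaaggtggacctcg
Mmp11: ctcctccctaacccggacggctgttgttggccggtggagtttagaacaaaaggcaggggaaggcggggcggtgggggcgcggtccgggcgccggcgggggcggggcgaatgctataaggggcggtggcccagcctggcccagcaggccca

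AP-1 is the classic inducer of many secreted MMPs, and TCF/LEF carries Wnt signals to the Mmp7 gene in intestine. Promoters were listed for 7 of the 10 members, and those of Mmp2, Mmp9 and Mmp14 are named only. In the 300 bases from 250 before to 50 after the start, read on both strands, TGANTCA was found in Mmp3, Mmp7 and Mmp12, which is 3 of 4 secreted members and 0 of 3 membrane-bound members with a promoter, against 7.33% of 33469 promoters. Its first base lay at -71 in Mmp3, -80 in Mmp7 and -87 in Mmp12. TATAAA was found in the same 3 members, at -32 in Mmp3, at -140 and -43 in Mmp7 and at -39 in Mmp12, against 14.2% of promoters. CTTTGA was found in Mmp7 at -12, against 16.1%, and the ETS core AGGAAG in Mmp3 at -206 and Mmp7 at -125, against 34.5%. The motifs do not overlap one another. Mmp3, Mmp7 and Mmp12 thus share the AP-1 letters and the TATA letters. All 3 lie in the chromosome 8 cluster, and Mmp11, the other secreted member with a promoter, had neither match. These matches are letters in a window of the reference genome, which comes from a BN rat, and they describe neither binding nor the ACI sequence.

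Of the 17 member probe sets, 4 were called higher in BN, 0 higher in ACI and 13 were not called. They belong to 4 genes, Mmp7, Mmp9, Mmp11 and Mmp12. Over all probe sets, limma called 5.87% higher in BN and 6.79% higher in ACI. At an unadjusted p below 0.05, 7 of the 17 passed, against 24.9% of all probe sets. In 6 of the 17 every BN rat lay above every ACI rat, against 5.47% of all probe sets. No member had every ACI rat above every BN rat, against 6.80%. The median difference was -0.53 over the member probe sets and 0 over all probe sets. At least 1 rat reached 4 in 12 of the probe sets and none did in the other 5. Counted by gene, with the probe set of the highest mean level standing for each, 4 of 10 were called higher in BN, against 9.12% of all genes, and 0 in ACI, against 8.29%.

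**Figure D1:**
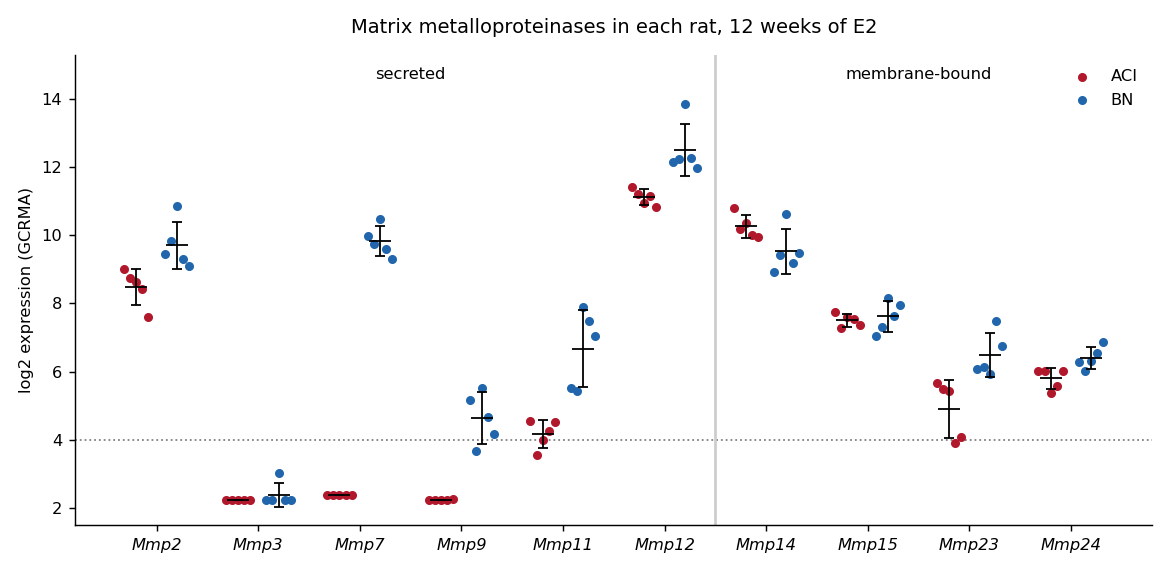
Log2 expression (vertical axis) of each of the 10 MMP genes in 5 ACI rats (red) and 5 BN rats (blue), for the probe set with the highest mean level of each gene. Points are rats, the cross bar is the mean and the whiskers 1 SD, and the dotted line is the near-background level of 4. Mmp7 lies at 2.37 in every ACI rat and between 9.31 and 10.48 in BN rats, and the 2 strains also separate for Mmp2, Mmp9, Mmp11, Mmp12 and Mmp23. Heights of different genes are not comparable.

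Mmp7 (matrilysin, probe set 1368766_at) is a small secreted MMP that lacks the hemopexin domain found in most of the family and is typically made by glandular epithelium. It had the largest strain difference of the members. It stood at 2.37 in all 5 ACI rats. In BN rats 1 to 5 it was 9.99, 9.75, 10.48, 9.61 and 9.31. The strains did not overlap, and the ACI values were near background in every rat. The difference was -7.46 (SE 0.192, 95% interval -7.90 to -7.02; limma adjusted p = 3.28e-07). Because ACI was near background, the fold is a bound: Mmp7 was at least 56.8-fold higher in BN, taken against the level of 4. It was called under every setting tried. It was also the 1 member called within the S rats alone (-7.70) and within the H rats alone (-7.09) alike.

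Mmp9 and Mmp2 are the gelatinases, which digest denatured collagen and basement membrane collagen. Mmp9 (gelatinase B), stored by neutrophils and made by macrophages, has 2 probe sets. On 1398275_at 4 ACI rats read 2.23 and ACI rat 5 read 2.25. BN rats 1 to 5 read 5.18, 3.66, 5.53, 4.67 and 4.17. All ACI rats were near background and 4 of 5 BN rats were above 4, with no overlap. The difference was -2.41 (SE 0.328, interval -3.16 to -1.66; limma adjusted p = 0.00217), and the bound on the fold is at least 1.56. The call was lost when values below 4 were set to 4 (-0.71, limma adjusted p = 0.191) and within the H rats alone (-2.18, limma adjusted p = 0.161). The other probe set, 1369166_at, was near background in every rat and was not called (-0.51, limma adjusted p = 0.304). Detection of Mmp9 in BN thus rests on 1 of its 2 probe sets, at a low level.

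Mmp2 (gelatinase A, 1370301_at) is a product of stromal fibroblasts. It was 9.00, 8.74, 8.64, 8.42 and 7.60 in ACI rats 1 to 5, and 9.44, 9.82, 10.85, 9.30 and 9.11 in BN rats 1 to 5. Every BN rat was above every ACI rat. The difference of -1.22 (SE 0.381, interval -2.10 to -0.35) did not pass after adjustment (limma adjusted p = 0.0761). It passed with the ID series as a block (limma adjusted p = 0.0297), with probe sets of mean below 4 left out (0.0202) and with arrays centred on their medians (0.0248), so the call depended on the setting, while no setting reversed the direction. A second Mmp2 probe set, 1369825_at, read 2.23 on all 10 arrays.

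Mmp11 (stromelysin 3, 1367858_at) is known from the stroma around breast carcinomas and is activated inside the cell by furin. It read 4.54, 3.56, 3.98, 4.27 and 4.52 in ACI rats 1 to 5. In BN rats 1 to 5 it read 5.52, 5.43, 7.90, 7.49 and 7.05. The strains did not overlap, and BN rats 1 and 2 lay well below the other 3. The difference was -2.50 (SE 0.528, interval -3.71 to -1.30; limma adjusted p = 0.0169), or 5.67-fold higher in BN. Leaving out any single rat kept the call, and leaving out BN rats 4 and 5 together did not (-2.11, limma adjusted p = 0.0604). Within the S rats alone (-2.26, limma adjusted p = 0.173) and the H rats alone (-2.88, limma adjusted p = 0.128) it did not pass.

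Mmp12 (macrophage elastase, 1368530_at) digests elastin and is characteristic of macrophages. It read 11.43, 11.22, 10.94, 11.16 and 10.83 in ACI rats 1 to 5, and 12.16, 12.25, 13.86, 12.27 and 11.99 in BN rats 1 to 5. Every BN rat was above every ACI rat, and BN rat 3 stood apart from the other 4. The difference was -1.39 (SE 0.349, interval -2.19 to -0.59; limma adjusted p = 0.0347), or 2.62-fold higher in BN. Without BN rat 3 the difference shrank to -1.05 and the limma adjusted p fell to 0.00205. The call was lost when any of the 5 ACI rats or BN rats 1, 2 or 4 was left out, with limma adjusted p between 0.0566 and 0.0819. It was also lost within the S rats alone (-1.56, limma adjusted p = 0.160) and within the H rats alone (limma adjusted p = 0.243).

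Mmp3 (stromelysin 1, 1368657_at), a broad-spectrum MMP of mammary stroma, was near background in every rat. It read 2.23 in all ACI rats and in 3 BN rats, 2.24 in BN rat 4 and 3.02 in BN rat 3. The difference was -0.16 (interval -0.51 to 0.19; limma adjusted p = 0.596). Its promoter carries the same AP-1 and TATA letters as those of Mmp7 and Mmp12.

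Mmp14, the membrane-type enzyme that activates the Mmp2 precursor on the cell surface, was the 1 member gene whose difference ran toward ACI. On 1367860_a_at it read 10.81, 10.20, 10.35, 10 and 9.96 in ACI rats 1 to 5, and 8.92, 9.43, 10.63, 9.18 and 9.48 in BN rats 1 to 5. The strains overlapped through BN rat 3, which was above 4 of the 5 ACI rats, while the other 4 BN rats were below every ACI rat. The difference of 0.74 (SE 0.323, interval -0.00 to 1.47) was not called (limma adjusted p = 0.202), and without BN rat 3 it was 1.01 and called (limma adjusted p = 0.0172). The probe set 1378225_at gave 0.28 (interval -0.69 to 1.25; limma adjusted p = 0.773), with ACI rats from 6.29 to 7.40 and BN rats from 5.29 to 7.39.

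Mmp15, another membrane-type enzyme, known from epithelia, showed strain means that lay close together. On 1383668_at ACI rats ranged from 7.28 to 7.75 and BN rats from 7.04 to 8.17, and the difference was -0.12 (interval -0.61 to 0.38; limma adjusted p = 0.864). Mmp24, best known from neurons, read 6.03, 6.03, 5.37, 5.58 and 6.02 in ACI rats and 6.28, 6.03, 6.30, 6.54 and 6.88 in BN rats on 1372422_at. The groups met at 6.03, and the difference of -0.60 (SE 0.195, interval -1.05 to -0.15) was not called (limma adjusted p = 0.0871). Mmp24 was called on this probe set when probe sets of mean below 4 were left out. Its probe set 1389833_at gave -0.53 (limma adjusted p = 0.396), with ACI rats from 3.70 to 5.06 and BN rats from 4.50 to 5.58, and 1368595_at read 2.23 on every array.

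Mmp23 is anchored by its amino-terminal end and released by cleavage, and it is known from reproductive tissue. On 1392265_s_at it read 5.68, 5.48, 5.42, 3.91 and 4.07 in ACI rats 1 to 5, and 6.08, 6.15, 5.92, 7.49 and 6.76 in BN rats 1 to 5. Every BN rat was above every ACI rat, but the gap was narrow among rats 1 to 3 and wide among rats 4 and 5. The difference of -1.57 (SE 0.466, interval -2.63 to -0.50) was not called (limma adjusted p = 0.0646), though it passed with arrays centred on their medians (limma adjusted p = 0.0352). It also passed with probe sets of mean below 4 left out. It was -0.52 (SE 0.0995) within the S rats, where it was called (limma adjusted p = 0.0374), and -3.14 within the H rats (limma adjusted p = 0.166). The difference between these, H minus S, was -2.61 (SE 0.299, limma interaction adjusted p = 0.0148), a test added after seeing the data that called 2.76% of all probe sets. On 1368961_at ACI rats read 4.91, 4.09, 2.86, 2.75 and 3.03 and BN rats 3.27, 4.22, 4.09, 4.93 and 5.58. There the strains overlapped (-0.89, limma adjusted p = 0.408), and the H minus S interaction was -2.46 (limma adjusted p = 0.206). The probe set 1381451_at was near background in every rat (-0.05, limma adjusted p = 0.383), at 2.25 in all but BN rats 4 and 5, which read 2.37 and 2.39. Its H minus S interaction was small and called (-0.13, limma adjusted p = 0.00148).

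Split by class, 4 of 6 secreted genes were called higher in BN, against 9.12% of all genes. In 5 of 6 every BN rat was above every ACI rat, a share not counted over all genes (5.47% of all probe sets). Their median difference was -1.90. With values below 4 set to 4 that median was -1.31. Of the 4 membrane-bound genes, 0 were called at the adjusted threshold, which for so few genes is near the share of all genes. With probe sets of mean below 4 left out, Mmp23 and Mmp24 were called higher in BN, so this count depended on the setting. In the main fit, 2 of the 4 membrane-bound genes passed an unadjusted p below 0.05 (Mmp23 and Mmp24), and 1 (Mmp23) separated the strains. Their median difference was -0.36, or -0.12 over all their probe sets or with Mmp23, which is released by cleavage, counted as secreted. It was -0.18 with S rats alone and -0.63 with H rats alone. The difference between the classes was not tested. The intervals of Mmp23 and Mmp24 lie below 0 on the probe set that stands for each gene, and include 0 on their other probe sets. Among probe sets the counts called higher in BN were 4 of 8 secreted and 0 of 9 membrane-bound, against 5.87% of all probe sets.

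**Figure D2:**
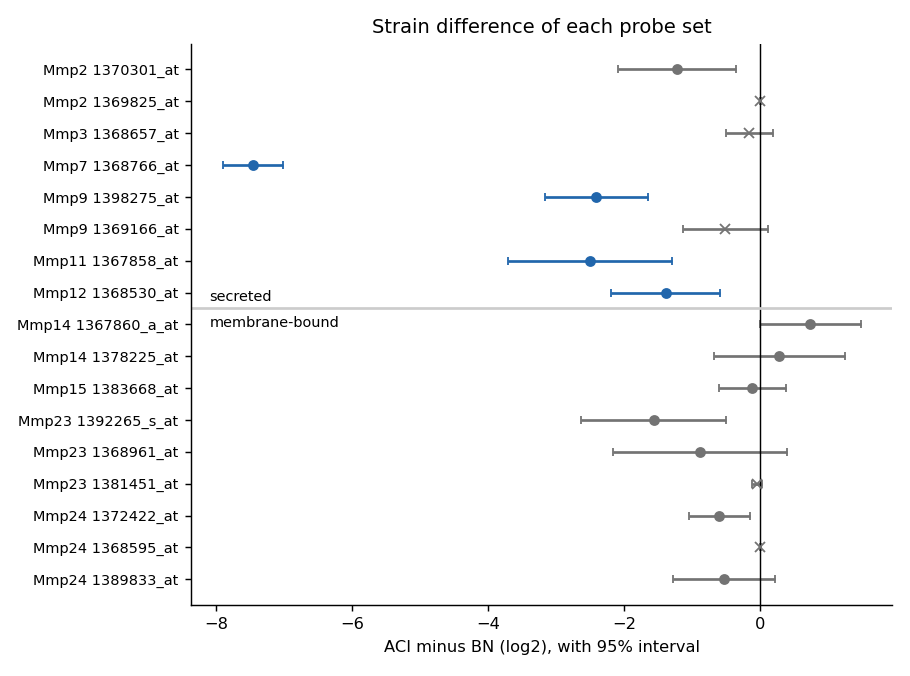
Difference between strains, ACI minus BN on the log2 scale (horizontal axis), of each of the 17 MMP probe sets, secreted above the line and membrane-bound below it. Bars are 95% intervals from limma, blue marks a call at an adjusted p below 0.05, grey no call, and crosses mark probe sets with no rat at or above 4. The 4 calls are Mmp7, Mmp9, Mmp11 and Mmp12, all on the BN side.

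An exact permutation test of the difference in means over all 252 arrangements of 5 rats against 5 gave p = 0.0079, two-sided, for Mmp2 (1370301_at), Mmp7, Mmp9 (1398275_at), Mmp11, Mmp12 and Mmp23 (1392265_s_at). This is the smallest value the design allows, and it applies to any probe set whose strains do not overlap. The exact p was 0.024 for Mmp24 (1372422_at) and 0.056 for Mmp14 (1367860_a_at).

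Within a strain, 1 rat was often the highest for several member probe sets. Some genes enter with more than 1 probe set, and how often each rat was highest over all probe sets was not counted. BN rat 3 was the highest BN rat for 7 of the 12 probe sets with a rat at or above 4 (Mmp2, Mmp7, Mmp9, Mmp11, Mmp12, 1367860_a_at of Mmp14, and Mmp15), with a median of 0.75 above the mean of the other BN rats. The other 5 probe sets (1378225_at of Mmp14 and those of Mmp23 and Mmp24) were highest in BN rats 4 or 5. On 1392265_s_at of Mmp23, BN rat 3 was the lowest BN rat, at 5.92. Among ACI rats, rat 1 was highest, or tied, in 9 of 10 probe sets with an ACI rat at or above 4, with a median of 0.55 above the others. Among BN rats, BN rat 3 also had the highest marker means of macrophages (10.17), fibroblasts (9.58), luminal epithelium (10.07) and basal cells (8.45). It had the lowest of T cells (5.71), B and plasma cells (5.19), adipocytes (10.40) and skeletal muscle (4.24). Among ACI rats, ACI rat 1 had the highest marker means of fibroblasts (8.55), basal cells (8.74), endothelium (7.66), adipocytes (10.67) and T cells (5.53). Its skeletal muscle mean was the lowest, at 7.47 against 10.02 to 11.70 in the other 4. The part of these cell markers in the MMP levels was not tested.

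**Figure D3:**
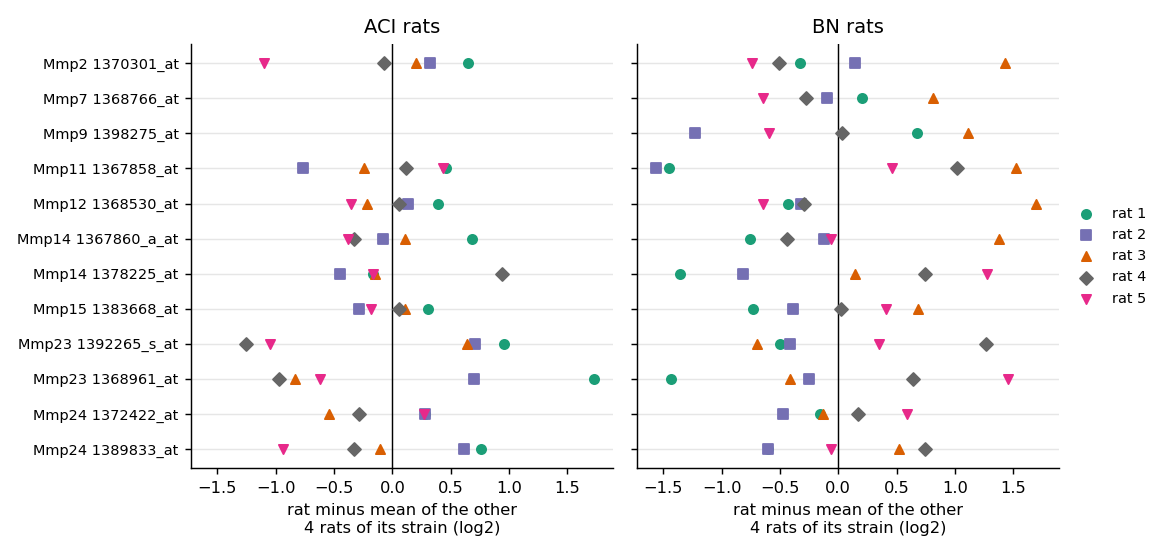
Each rat's log2 level minus the mean of the other 4 rats of its strain (horizontal axis), for the 12 MMP probe sets with a rat at or above 4, in ACI (left) and BN (right). A symbol stands for a rat, and equal numbers in the panels were not treated as pairs. Probe sets with no ACI rat at or above 4 have no points on the left. BN rat 3 lies farthest right in 7 rows and ACI rat 1, alone or tied, in 9.

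Markers of cells known to make MMPs were counted beside the members, against 17.4% of all genes called in either direction. Of 12 macrophage markers 7 were called higher in BN and 0 in ACI, and their mean log2 level was 8.34 to 8.72 over ACI rats and 9.41 to 10.17 over BN rats. Lyz2 (lysozyme) was 12.12 ± 0.257 in ACI and 14.36 ± 0.128 in BN, while Cd14 was 11.24 ± 0.419 and 11.15 ± 0.282 (SD, n = 5 each). Of 6 neutrophil markers 2 were called higher in BN and 1 in ACI, with list means of 3.11 to 3.68 in ACI and 4.01 to 5.94 in BN. S100a9 was 5.28 ± 1.02 and 10.20 ± 2.10, S100a8 was 2.98 ± 0.338 and 7.69 ± 2.79, and the granulocyte genes Cxcr2 and Camp stood at 2.23 in every rat. Of 10 fibroblast markers 5 were called higher in BN and 1 in ACI, with means of 8.05 to 8.55 in ACI and 8.71 to 9.58 in BN. Vim was 12.06 ± 0.271 and 13.44 ± 0.213, and Postn was 11.69 ± 0.0992 and 13.04 ± 0.668. Of 10 luminal epithelial markers 0 were called higher in BN and 3 in ACI, with means of 10.11 to 10.54 in ACI and 9.34 to 10.07 in BN. Epcam was 13.03 ± 0.0950 and 12.29 ± 0.112, and Krt19 was 12.06 ± 0.417 and 12.23 ± 0.720. Beside these, the called members include a typical macrophage product (Mmp12), a neutrophil and macrophage product (Mmp9), a stromal product (Mmp11) and an epithelial product (Mmp7). The part of these cell types in the differences was not tested.

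Mmp12, Mmp3 and Mmp7 belong to the metalloproteinase gene cluster of rat chromosome 8, which in RefSeq order runs Mmp13, Mmp12, Mmp1b, Mmp3, Mmp1, Mmp10, Mmp8, Mmp27, Mmp20 and Mmp7, with 0 other protein-coding genes between them. Of these 10 genes 6 were measured. Mmp12 and Mmp7, near opposite ends of the row, were called higher in BN, against 9.12% of all genes. The other 4 (Mmp13, a collagenase, Mmp3 and Mmp10, stromelysins, and Mmp8, the neutrophil collagenase) were near background in all 10 rats. Mmp8 and Mmp10 read 2.23 on every array. Mmp13 was 2.27 ± 0.0984 in ACI and 2.23 ± 0.00447 in BN (SD, n = 5 each). The strain difference thus appeared in 2 of the 6 measured genes of the row. Between these 2, Mmp3, Mmp10 and Mmp8 were near background, and Mmp1b, Mmp1, Mmp27 and Mmp20 were not measured.

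**Figure D4:**
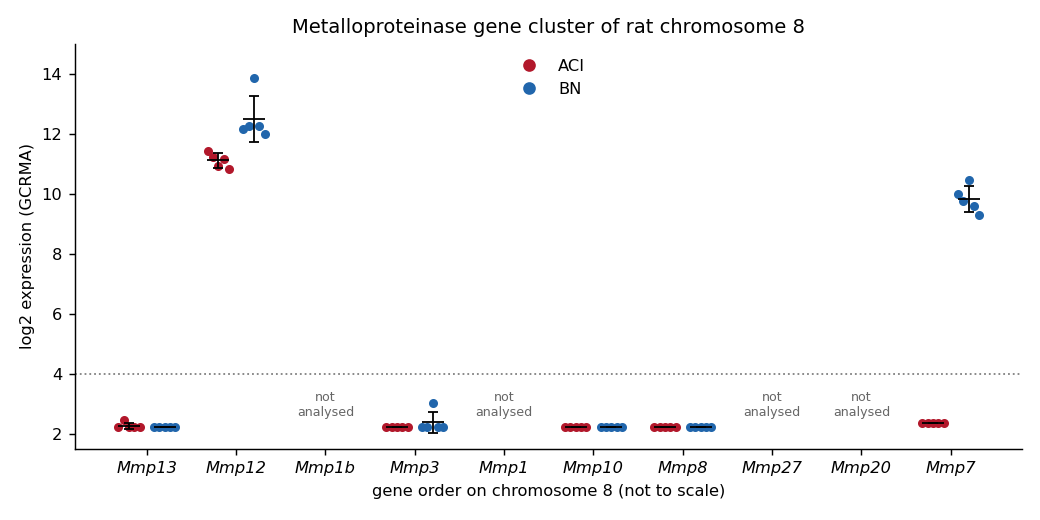
Log2 expression (vertical axis) in 5 ACI (red) and 5 BN (blue) rats of the genes of the chromosome 8 MMP cluster, in gene order but not to scale. Points are rats, bars the mean and 1 SD, and the dotted line the near-background level of 4. Mmp12 and Mmp7 rise above the line, Mmp7 in BN rats, and the other 4 measured genes stay below it in every rat.

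Other genes of the pathway were taken from 5 lists of inhibitors, activators, substrates, inducing factors and further MMPs, 54 measured genes in all. Of these, 16 were called higher in BN, 3 higher in ACI and 35 were not called, with a median difference of -0.49, against 9.12% and 8.29% of all genes and a median of 0.

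Among the inhibitors, 5 of 6 genes were called higher in BN and 0 higher in ACI (median -1.40), against 9.12% and 8.29% of all genes. Timp1, an inducible inhibitor of most MMPs, read 7.83, 8.14, 8.16, 7.82 and 7.79 in ACI rats and 9.51, 10.09, 10.82, 9.21 and 8.34 in BN rats. The strains did not overlap, and BN rat 3 was again highest (-1.65, limma adjusted p = 0.0350). Timp2, which both inhibits Mmp2 and joins Mmp14 in activating it, was 10.26 ± 0.390 in ACI and 11.64 ± 0.246 in BN (SD, n = 5 each) on 1386940_at (-1.38, limma adjusted p = 0.00296). Its other probe set ran the opposite way without passing (0.41, limma adjusted p = 0.435). Timp3, which is bound to the matrix, was called on 1 of 4 probe sets (-1.41, limma adjusted p = 0.0420), where the strains overlapped.

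Timp4 gave no call (-0.11, interval -0.68 to 0.46; limma adjusted p = 0.939). Reck, a membrane-anchored inhibitor, was 8.50 ± 0.320 in ACI and 9.67 ± 0.339 in BN (-1.17, limma adjusted p = 0.00699). A2m, a circulating inhibitor, was near background in ACI and read 3.26 to 5.89 in BN, at least 1.55-fold higher (limma adjusted p = 0.0241). The balance of active enzyme and inhibitor was not measured.

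**Figure D5:**
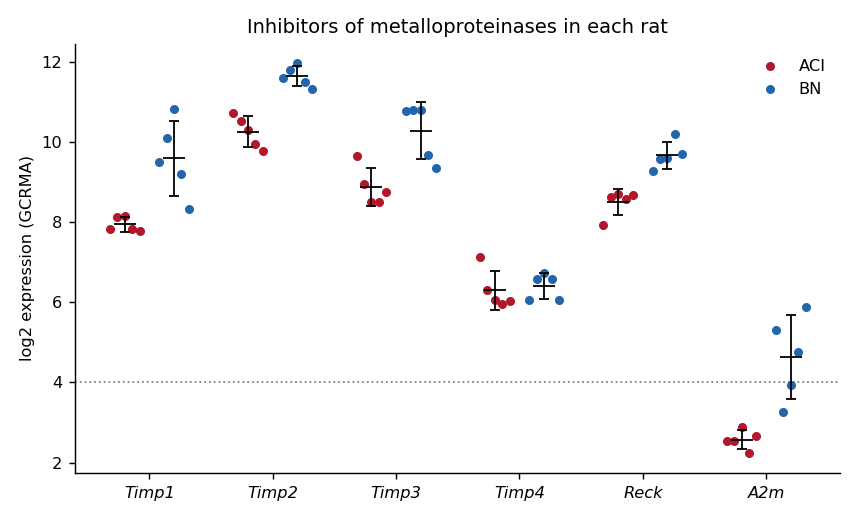
Log2 expression (vertical axis) of 6 inhibitors of MMPs in 5 ACI (red) and 5 BN (blue) rats, for the probe set with the highest mean level of each gene. Points are rats, bars the mean and 1 SD, and the dotted line the near-background level of 4. Timp1, Timp2, Reck and A2m separate the strains with BN higher, Timp3 overlaps, and Timp4 has a difference of -0.11.

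Of 11 activators and partners, 4 were called higher in BN and 2 in ACI (median -0.35), against 9.12% and 8.29% of all genes. The proprotein convertases split. Furin, which removes the pro-peptides of Mmp11 and of the membrane-type enzymes, was higher in ACI, with 7.84 to 8.16 in ACI rats and 6.63 to 7.58 in BN rats (0.84, limma adjusted p = 0.0170). Pcsk6 was also higher in ACI, at 7.09 ± 0.260 against 4.79 ± 0.916 (2.29, limma adjusted p = 0.00842). Pcsk5, named beside them after its value was seen, was near background in ACI and 4.48 to 5.12 in BN, at least 1.75-fold higher (limma adjusted p = 0.000316). That call rests on 1 of its 3 probe sets, since the others read 2.23 on all 10 arrays. Cd44, a hyaluronan receptor that docks Mmp7 and Mmp9 on the cell surface, read 4.53 to 5.53 in ACI rats and 7.22 to 8.78 in BN rats (-3.19, limma adjusted p = 0.000796). Lcn2 (lipocalin), a partner that shields Mmp9, read 3.40 to 5.77 in ACI rats and 13.02 to 13.67 in BN rats (-8.35, limma adjusted p = 2.19e-05).

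Of 14 matrix substrates, 4 were called higher in BN and 0 in ACI (median -0.76), against 9.12% and 8.29% of all genes. Spp1 (osteopontin), which Mmp7 and Mmp3 cut, read 2.71 to 5.19 in ACI rats and 13.06 to 13.98 in BN rats (-9.39, limma adjusted p = 1.58e-05). Fn1 (fibronectin) was 9.10 ± 0.199 in ACI and 11.07 ± 0.348 in BN (-1.96, limma adjusted p = 0.000282). The collagens most often digested by interstitial MMPs, Col1a1, Col1a2 and Col3a1, were not called (-0.78, -1.76 and -0.74). For Col3a1 every BN rat was above every ACI rat (limma adjusted p = 0.0510), while the strains overlapped for Col1a1 and Col1a2. Col4a1 and Col4a2, chains of basement membrane collagen, were not called either (-0.05 and -0.54). A further chain of that collagen, Col4a5, was called higher in BN (-1.21, limma adjusted p = 0.00660), as was Nid1 (nidogen), another basement membrane protein (-0.77, limma adjusted p = 0.00227). These 7 were named after their values were seen.

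Of 16 factors that drive MMP genes, 2 were called higher in BN and 1 in ACI (median -0.18). That is near the 17.4% of all genes called in either direction. The count takes 1 probe set per gene, and its calls of Stat3 (BN) and Jun (ACI) are split between probe sets, as given below. Fos, a component of AP-1, was 7.49 ± 0.695 in ACI and 9.62 ± 0.388 in BN (-2.13, limma adjusted p = 0.00513), with its other probe set not called. Jun, its partner, was called in both directions: 1389528_s_at gave 1.21 (limma adjusted p = 0.0380) and 1369788_s_at gave -0.44 (limma adjusted p = 0.0298). Stat3 was likewise split, with -0.54 on 1371781_at (limma adjusted p = 0.0151) and 2.68 on 1370224_at (limma adjusted p = 0.00261). No direction is therefore given for Jun or Stat3. Lef1, a TCF/LEF factor named after its value was seen, was near background in ACI on both of its probe sets and scattered in BN. On 1370138_at it was called higher in BN (-3.13, limma adjusted p = 0.0362), with every ACI rat at 2.23 and BN rats from 2.35 to 7.16. On 1383785_at, which has the higher mean and stands for the gene in the counts, it was not called (-2.90, limma adjusted p = 0.0551), with BN at 5.62 ± 1.87 (SD, n = 5).

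Of 13 further MMPs listed, 7 were measured, and 6 of these were near background in every rat. Mmp17, a membrane-anchored enzyme, was called higher in BN (-0.60, limma adjusted p = 0.00432) although both strains were near background. Mmp28, an epithelial secreted enzyme, was the 1 gene of this list above 4, at 4.53 ± 0.523 in ACI and 5.61 ± 0.563 in BN (SD, n = 5 each), and it was not called (-1.08, limma adjusted p = 0.0752).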

How the data were processed

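Gland RNA of 5 rats per strain was hybridised to 1 array per rat. The authors summarised probe signals to log2 expression per probe set, and the submitters' processing notes name GCRMA 2.18.1. The deposited values have 2 decimals and were used unchanged. GCRMA draws weak probe sets to a common floor, so low levels are compressed and the size of a difference from the floor is not exact. The sources used here do not say which arrays were normalised together. Genes were named through the platform annotation and a RefSeq gene table, which matched 20758 of 20826 probe sets with 1 symbol by gene ID. After 57 control probe sets were left out, 31042 of 31099 were fitted with limma 3.58.1 in R 4.3.3, on strain alone, with Benjamini-Hochberg adjustment over all. The fit was checked on simulated data. Exact permutation tests, counts and motif searches were run in Python 3.11.15. The number of arrays limits the precision.

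Strains were deposited under separate runs of accessions, so deposit and strain cannot be told apart, and the extraction text of BN samples names ACI rats. S and H identifiers occur in both strains and were tried as a block and apart. Members, companion lists (inhibitors, activators and partners, matrix substrates, inducing factors, other MMPs) and marker lists were chosen with earlier results of these data known. Named genes were every member, the 2 called genes of each companion list with the largest difference in each direction, all TIMPs, and the 2 highest genes of each marker list. Reck, Krt8 and others said to be so were named besides. Alternatives covered the low-value filter, a floor at 4, array centring, array weights, blocks, the methods' t-test and leaving out rats.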

Additional observations from a re-analysis of the deposited data

Results flagged for a closer look

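Of 67 groups of 5 rats, 7 held a rat whose distance from the nearest other rat exceeded Dixon's critical value of 0.71 of the group's range, and chance gives about 1 in 20 such groups. For Mmp12 in BN it was rat 3, at 13.86. For 1378225_at of Mmp14 in ACI it was rat 4, at 7.40. For Pcsk6 it was ACI rat 3, lowest at 6.64, and BN rat 5, lowest at 3.17. For Timp4 in ACI it was rat 1, highest at 7.13. Among BN rats, rat 3 was lowest in mean B and plasma cell marker level, at 5.19, and in mean T cell marker level, at 5.71. BN rat 3 is thus the rat with the lowest lymphocyte markers of its strain and the highest Mmp2, Mmp7, Mmp9, Mmp11 and Mmp12.

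The strain difference of Mmp23 on 1392265_s_at differed between rats whose identifiers begin with H and those that begin with S, by -2.61 (H minus S, limma adjusted p = 0.0148). In ACI rats the probe set was 5.42 to 5.68 in S and 3.91 to 4.07 in H, and in BN rats 5.92 to 6.15 in S and 6.76 to 7.49 in H. On 1381451_at, near background in every rat, the same difference was -0.13 (limma adjusted p = 0.00148). Each of the H groups holds 2 rats.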

How the results depend on the processing

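No called member changed direction under any setting. Among those not called, Mmp15 turned positive with S rats alone (0.03), with array weights (0.07) and without BN rat 3 (0.02), 1368961_at of Mmp23 with S rats alone (0.09), and 1378225_at of Mmp14 turned negative with H rats alone (-0.22). The 4 member probe sets called higher in BN became 1 with H rats alone and 7 with the methods' t-test unadjusted, which gave 4 after Benjamini-Hochberg adjustment. There were 3 with S rats alone (Mmp7, Mmp9 and Mmp23) and 3 with a floor at 4, which lost Mmp9. The ID series as a block added Mmp2 and gave 5, and centring added Mmp2 and Mmp23 and gave 6. Requiring a mean of at least 4 left Mmp9 out of the fit, added Mmp2, Mmp23 and Mmp24, and also gave 6. Leaving out 1 rat gave 3 to 4 called higher in BN and 0 to 1 higher in ACI, the 1 being Mmp14 without BN rat 3. Of companion genes, the 16 called higher in BN became 1 with H rats alone, 25 with the methods' t-test unadjusted and 27 with array weights, and 13 to 19 without 1 rat. The 3 called higher in ACI became 0 with H rats alone and 5 with array weights, and 2 to 3 without 1 rat. The median of secreted genes, -1.90, was -1.31 with a floor at 4 and -1.31 over all their probe sets, and -2.05 to -1.62 without 1 rat. That of membrane-bound genes, -0.36, was -0.45 to -0.26 without 1 rat, and -0.12 when Mmp23, which is released by cleavage, was counted as secreted, where the secreted median was -1.57. Mmp7 was called in each setting run. The causes of the other shifts were not tested, beyond fewer rats in the S and H settings.

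Rats of both strains share replicate numbers. Same-numbered rats showed no consistent shared deviation, with correlations of 0.11, -0.13, -0.10, 0.23 and -0.25. These values have no reference to be judged against, so they do not settle whether the numbers pair the rats. The main fit treated the rats as unpaired. With the replicate number as a block, 2 member probe sets were called higher in BN and 0 companion genes higher in ACI, and Mmp11 (adjusted p = 0.0660) and Mmp12 (0.127) were not called by limma. Signal near background limits Mmp3, Mmp9 and the ACI level of Mmp7, whose values there have no order.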

Other observations

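Markers of further cell types were counted in the same way, against 17.4% of all genes called in either direction. All 5 measured B and plasma cell markers were called higher in BN, with list means of 3.03 to 3.23 over ACI rats and 5.19 to 9.82 over BN rats. Jchain, which joins immunoglobulin chains, was 6.69 ± 0.430 in ACI and 10.55 ± 0.215 in BN, and Ms4a1, a B cell surface antigen, was 2.23 in every ACI rat and 9.04 ± 3.83 in BN (SD, n = 5 each). Of 8 T cell markers 4 were called higher in BN and 0 in ACI, with Cd3g at 6.72 ± 0.274 and 10.69 ± 1.49 and Lck at 6.19 ± 0.181 and 8.38 ± 1.19. Of 5 endothelial markers 3 were called higher in BN and 0 in ACI, with Tek at 7.99 ± 0.376 and 9.57 ± 0.892 and Kdr at 7.89 ± 0.205 and 9.41 ± 0.592. Of 6 adipocyte markers 1 was called higher in BN, with Fabp4 given above and Lpl at 13.37 ± 0.173 and 13.37 ± 0.150. Of 7 basal and myoepithelial markers 1 was called higher in ACI, with Myh11 at 10.19 ± 0.202 and 9.72 ± 0.611 and Acta2 at 10.35 ± 0.492 and 9.28 ± 0.874. Of 7 skeletal muscle markers 0 were called by limma at the adjusted threshold, and their mean varied widely between rats of a strain, from 7.47 to 11.70 in ACI and 4.24 to 10.64 in BN. Acta1 was 12.73 ± 1.51 and 9.67 ± 2.79, and Myh1 was 11.04 ± 0.671 and 11.30 ± 0.325. The median difference of the muscle markers was 3.71, toward ACI, and Myh1 alone ran toward BN (-0.26).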
